A study of Drosophila melanogaster with 2 samples.

Results

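The 4 Dscam genes of Drosophila melanogaster, Dscam1, Dscam2, Dscam3 and Dscam4, were examined for binding of scrt (Scratch), a DNA-binding protein related to Snail that is made in neurons and carries zinc fingers. They were taken by name, as 4 of 13968 protein-coding genes on the 7 chromosome arms. Their peaks were those whose summit lay in the gene body or within 5 kb of it. The material was whole embryos of mixed sex, collected between 4 and 24 h of development, from a transgenic line with GFP fused to the C terminus of scrt. The labels list 2 biological replicates, numbered 3 and 4, in 1 group. There is thus no contrast between conditions, and agreement of the replicates is the only error that can be shown. One label field describes the libraries as input, another gives scrt as the antibody; the second was followed. The control alignments were not analysed here. The promoter that drives the tagged gene is not given in the sources used here. In whole embryos, strong binding in few cells and weaker binding in many cells cannot be told apart.

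Dscam proteins are cell-surface receptors of the immunoglobulin superfamily, with immunoglobulin and fibronectin type III domains outside the cell. Dscam1 is known for self-avoidance: a very large set of isoforms, made by choosing 1 alternative exon from each of several clusters, binds only its own kind, so that sister branches of a neuron recognise and repel each other. Dscam2 is known for tiling, the separation of neighbouring neurons of the same class in the visual system. Dscam3 and Dscam4 are the less studied paralogs.

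Each value below comes from lists of peaks on assembly dm6. The optimal list, thresholded by the authors on the irreproducible discovery rate (IDR), holds 6407 peaks, and these are the 6407 peaks of highest signal in a pooled list of 30000 peaks that also contains background. Signal is the authors' own enrichment value. It is comparable only within a list, so replicates were compared by rank, with rank 1 for the highest signal. The read depth is unknown. A gene held an optimal summit in its body or within 5 kb in 4 of 4 Dscam cases, against 51.6% of all protein-coding genes. All 4 are long genes, of 64.0 kb (Dscam1), 30.7 kb (Dscam2), 31.7 kb (Dscam3) and 43.8 kb (Dscam4), and among the longest 10% of protein-coding genes (1397 genes of 14711 bp or more) the share was 77.7%. A summit in 4 of 4 is thus near what genes of this length had.

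The regions of the 4 genes held 9 optimal summits, with 4 at Dscam1, 1 at Dscam2, 2 at Dscam3 and 2 at Dscam4. That is 4.28 per 100 kb of these regions and 4.66 per 100 kb of the chromosome arms. The median over the longest 10% of genes was 2 summits, and 28.8% of them had at least the 4 of Dscam1. The signals, on the other hand, were spread widely. The median of the 9 was 745, against 333 over the optimal list, and 6 of the 9 were above that 333. By the best signal in its region, Dscam1 stood at place 67 among protein-coding genes, Dscam3 at 435, Dscam4 at 1086 and Dscam2 at 6494; neighbouring genes can share a peak in this order. For Dscam4 and Dscam2 the best peak lay at a neighbouring gene, as described below.

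**Figure D1:**
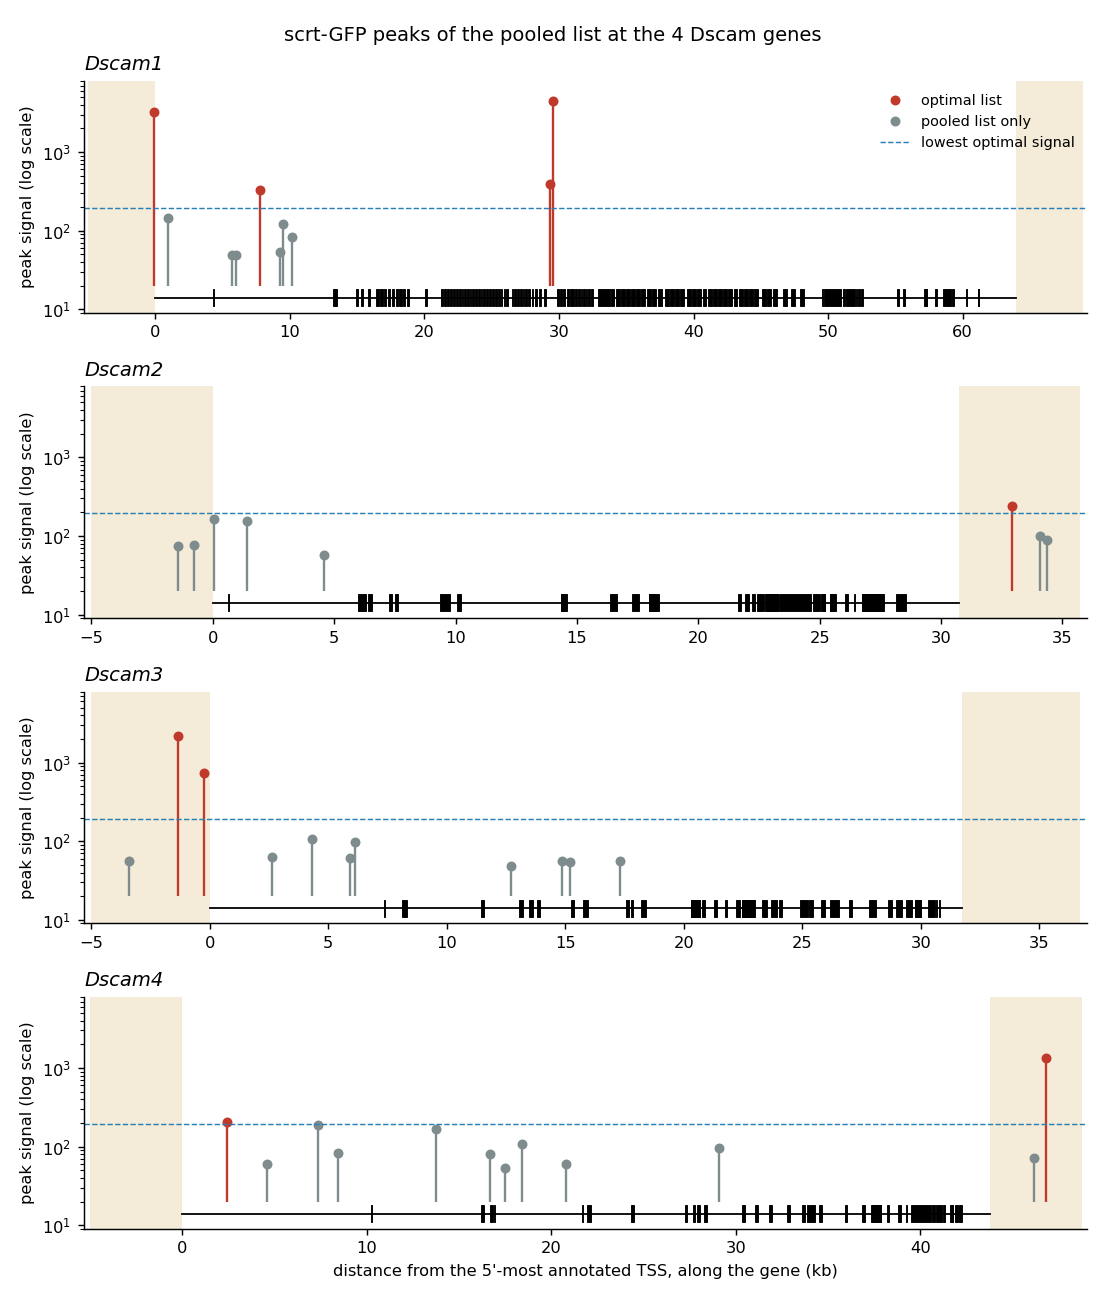
Signal (log scale) of every pooled peak against the distance of its summit from the 5'-most annotated transcription start site (TSS), in kb along each gene. Red points are in the optimal list and grey points only in the pooled list; black boxes are coding exons, the shaded ends are the 5-kb flanks and the dashed line is the lowest optimal signal, 193. The strong summits stood near the TSS of Dscam1 and Dscam3, far inside Dscam1, and beyond the 3' end of Dscam4.

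Dscam1 carried 2 of the strongest peaks of the experiment, 1 at its promoter and 1 deep in the gene. Dscam1 (FBgn0033159) lies on the minus strand of 2R, 7317924 to 7381899, with 75 annotated transcripts and 2 TSSs at 7381869 and 7381899. The promoter peak (7381722 to 7382291, summit 7382021) lay 122 bp upstream of the TSS, between Dscam1 and the 3' end of cos, which encodes a kinesin-like protein of Hedgehog signalling. Its signal was 3227, rank 65 of 6407. In replicate 3 it had rank 64 with a signal of 1749, and in replicate 4 rank 77 with a signal of 1479. An optimal summit within 500 bp of an own TSS was found for 3 of the 4 Dscam genes, all but Dscam2, against 22% of protein-coding genes and 47% of the longest 10%. A weaker optimal peak lay in intron 2 (7373873 to 7374302), 7781 bp from the TSS, with a signal of 325 and rank 3336, and ranks of 2941 in replicate 3 and 3743 in replicate 4.

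The strongest Dscam peak lay among the alternative exons that give Dscam1 its diversity. It spanned 7352123 to 7352797 with its summit at 7352353, 29516 bp from the nearest TSS of Dscam1, and had a signal of 4481 and rank 29. Its rank was 26 in replicate 3 (signal 2529) and 34 in replicate 4 (signal 1981). Read from the coding exons of the 75 transcripts, Dscam1 has clusters of 12 alternatives for exon 4, 48 for exon 6, 33 for exon 9 and 2 for exon 17. The peak was inside the exon 6 cluster, which spans 11.3 kb (7349393 to 7360649), with 35 alternatives on its 5' side and 13 on its 3' side. It filled most of the widest gap between neighbouring alternatives of that cluster, 859 bp (7352040 to 7352898), where the next widest gap was 271 bp and the median 86 bp. The whole peak lay between exons, 102 bp from the exon on its 5' side and 84 bp from that on its 3' side.

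A second optimal summit, of signal 393 and rank 2511, was listed with the same start and end, 203 bp from the first. Its nearest replicate summits ranked 6450 in replicate 3 and 8544 in replicate 4, below the 6407 best of either replicate. No pooled summit, and thus no optimal one, fell in the clusters of exons 4, 9 or 17, with 0 in each. The nearest TSS of any gene was that of the antisense RNA gene asRNA:CR44071, 9008 bp away. Of the 100 leading optimal peaks, 67 lay within 500 bp of an annotated TSS and 8 lay more than 5 kb from one; the Dscam1 peak was 1 of 2 at 9008 bp or more. With both of its strong peaks among the leading 100, Dscam1 was 1 of 11 protein-coding genes (0.0788%) with 2 or more such summits in their region. This view of the leading 100 was chosen after the Dscam1 values were seen, and the 0.0788% takes no account of gene length. Neighbouring genes can also share such summits.

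**Figure D2:**
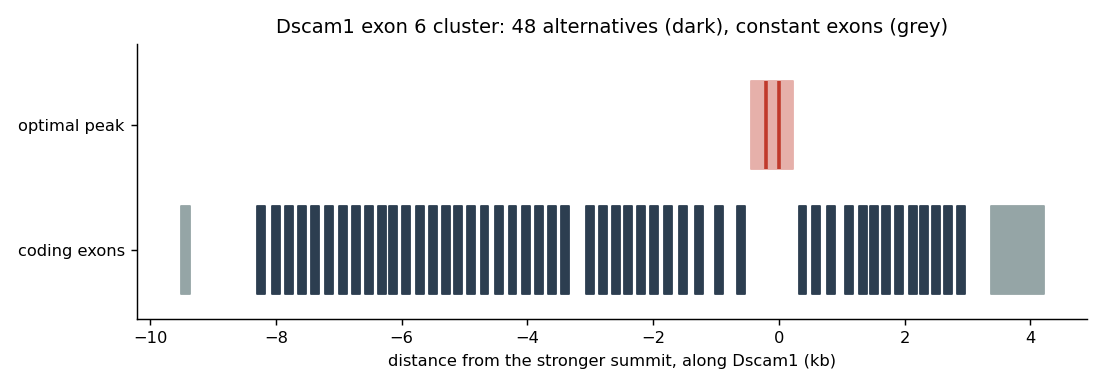
The optimal peak in the exon 6 cluster of Dscam1, with distance from its stronger summit in kb along the gene on the horizontal axis. Dark boxes are the 48 alternative exons, grey boxes the constant exons on either side, the pink box the peak and the red lines its 2 listed summits; the peak lies in the 859-bp gap after the first 35 alternatives.

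Dscam3 was bound just upstream of its start, at a pair of reproducible sites. Dscam3 (FBgn0261046) lies on the minus strand of 3R, 17473935 to 17505667, with 4 transcripts and 1 TSS. The stronger peak (17506715 to 17507222) had its summit 1334 bp upstream of the TSS, with a signal of 2179 and rank 165. It ranked 153 in replicate 3 (signal 1191) and 185 in replicate 4 (signal 987). The promoter peak (17505667 to 17506226), 255 bp upstream of the TSS, had a signal of 745 and rank 1074, with ranks of 844 (signal 450) and 1518 (signal 293) in replicates 3 and 4. Both replicates thus ranked the upstream site above the promoter site, 1079 bp away. No other protein-coding gene lies within 5 kb of Dscam3, and its TSS was the nearest to both summits. The best peak of Dscam3 below the optimal list lay in intron 2 (summit 17501361), with a signal of 108 and rank 12294.

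The sequences around these summits are shown because both hold GCAACA, a 6-mer chosen for its frequency at optimal summits in earlier results of these data. They run 5′ to 3′ on the plus strand of Release 6 (the strand opposite to Dscam3), 100 bases to either side of the summit, at chr3R:17506901-17507101 and chr3R:17505822-17506022. Capitals mark TGTTGC, the reverse complement of GCAACA, whose centre was 10.5 bp from the summit of the upstream peak and 72.5 bp from that of the promoter peak.
Dscam3 upstream peak: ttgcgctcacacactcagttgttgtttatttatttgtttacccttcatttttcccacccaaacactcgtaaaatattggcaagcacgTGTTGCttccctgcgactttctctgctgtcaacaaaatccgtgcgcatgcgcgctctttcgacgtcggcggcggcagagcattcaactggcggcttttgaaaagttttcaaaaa
Dscam3 promoter peak: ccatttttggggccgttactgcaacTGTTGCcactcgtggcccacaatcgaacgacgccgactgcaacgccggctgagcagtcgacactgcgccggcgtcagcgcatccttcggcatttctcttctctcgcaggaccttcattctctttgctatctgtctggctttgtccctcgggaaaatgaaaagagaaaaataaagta

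Dscam4 had a weak peak at its second start and a strong one in the neighbouring gene. Dscam4 (FBgn0263219) lies on the plus strand of 3L, 8238647 to 8282398, with 5 transcripts and TSSs at 8238647 and 8241131. An optimal peak (8240875 to 8241304) had its summit 41 bp upstream of the second TSS, with a signal of 204 and rank 5990, near the end of the optimal list. Its rank was 5107 in replicate 3 (signal 115.4) and 6015 in replicate 4 (signal 110). That summit was also the nearest pooled one to the first TSS, 2.44 kb away. The gene CG7213 overlaps the 5' end of Dscam4 on the other strand and starts between the 2 Dscam4 TSSs, 489 bp from the summit. The stronger peak (8285259 to 8285662) had a signal of 1322.5 and rank 427, with ranks of 366 (signal 761) in replicate 3 and 509 (signal 572) in replicate 4. It lay past the 3' end of Dscam4, in an intron of cert, which encodes a ceramide transfer protein, 1003 bp from the cert TSS and 44335 bp from the nearest Dscam4 TSS. It came into the Dscam4 region only through the 5-kb flank.

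A further peak of Dscam4 lay just outside the optimal list, near its threshold. The lowest optimal signal was 193. A 138-bp peak in intron 1 of Dscam4 (8245943 to 8246080), 4864 bp from the second TSS, had a signal of 187 and rank 6649, against 204 for the promoter peak just inside. The replicates differed on it, with rank 4572 in replicate 3 and 11320 in replicate 4. The 3 windows below are shown because they hold GCAACA or CAGGTG near their summits. All are on the plus strand of Release 6, 5′ to 3′, at chr3L:8240990-8241130 (ending at the base before the second TSS), chr3L:8245945-8246045 and chr3L:8285366-8285566. Capitals mark CAGGTG, 78.5 bp from the summit, in the first, GCAACA, 17.5 bp from the summit, in the second, and its reverse complement, 15.5 bp from the summit, in the third.
Dscam4 second promoter peak: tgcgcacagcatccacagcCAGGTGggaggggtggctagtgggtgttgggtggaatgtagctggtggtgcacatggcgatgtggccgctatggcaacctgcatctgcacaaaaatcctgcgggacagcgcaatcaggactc
Dscam4 intron 1 peak: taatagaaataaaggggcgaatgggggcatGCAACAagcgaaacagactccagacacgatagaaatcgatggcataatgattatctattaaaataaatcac
cert intron peak: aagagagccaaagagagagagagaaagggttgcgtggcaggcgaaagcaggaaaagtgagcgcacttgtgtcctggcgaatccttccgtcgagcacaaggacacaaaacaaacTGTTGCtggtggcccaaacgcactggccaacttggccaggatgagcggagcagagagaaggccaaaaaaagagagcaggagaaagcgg

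Dscam2 had no optimal peak of its own. Dscam2 (FBgn0265296) lies on the minus strand of 3L, 7159199 to 7189931, with 15 transcripts from 1 TSS. The only optimal summit in its region (7156797 to 7157226, signal 241, rank 4879) lay beyond its 3' end, in the 5' UTR of corn, which encodes a microtubule-binding protein, 61 bp from the corn TSS and 32919 bp from that of Dscam2. It ranked 4825 in replicate 3 (signal 121) and 4543 in replicate 4 (signal 137). At the Dscam2 TSS itself, the pooled list had a peak (7189666 to 7190095) with its summit 50 bp inside exon 1, a signal of 164 and rank 7758, below the optimal list. That peak was present in both replicates, at rank 9096 (signal 72.3) in replicate 3 and rank 7211 (signal 94.9) in replicate 4. A similar pooled peak of signal 153 and rank 8415 lay 1400 bp inside the gene, in intron 1. Dscam2 is thus listed without an optimal promoter peak, though a pooled peak below the optimal list lay at its TSS. Of all pooled peaks below the optimal list, 70.2% overlapped a peak of both replicates. A pooled peak of this rank is not a called site.

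The optimal Dscam peaks held up in both replicates, which is a property of the optimal list. All 9 overlapped by at least 1 bp a peak of each replicate list (100%, exact binomial 95% interval 66.4 to 100, counting error only), against 97.6% of all optimal peaks. Both summits of the exon 6 peak have the same start and end, so they match together and the 9 are not independent. Summits in the replicates lay within 97 bp of those in the pooled list. The 5 strongest peaks had the same order in both replicates, with the Dscam1 exon 6 peak first, then the Dscam1 promoter, the Dscam3 upstream site, the cert intron and the Dscam3 promoter. Of the 9, 8 ranked better in replicate 3, against 52.4% of the optimal peaks matched in both. The optimal list was made from these replicates, so none of this is an independent check.

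**Figure D3:**
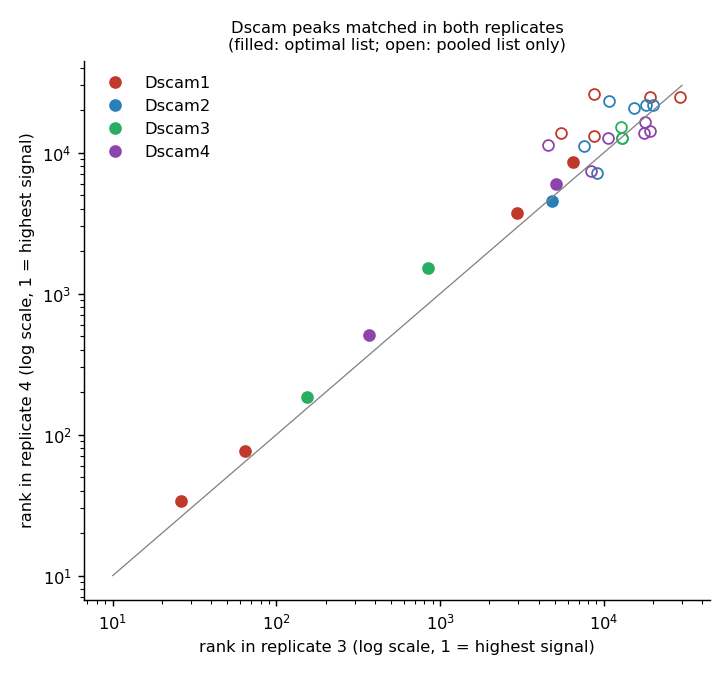
Rank of each Dscam peak in replicate 3 against its rank in replicate 4 (log scales, 1 is the highest signal), for pooled peaks matched in both replicates. Filled points are in the optimal list and open points only in the pooled list, coloured by gene, with the grey line at equal ranks; the 5 strongest peaks keep their order in both replicates, and the open points scatter between ranks 4572 and 29043.

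Below the optimal threshold the agreement was looser. The 4 regions held 32 further pooled peaks, 6 at Dscam1, 7 at Dscam2, 9 at Dscam3 and 10 at Dscam4, with signals from 48.2 to 187 and ranks from 6649 to 28360. Of these, 20 (62.5%, exact binomial 95% interval 43.7 to 78.9) overlapped a peak of both replicates, 6 only of replicate 3 and 6 only of replicate 4, against 70.2% in both over all pooled peaks below the optimal list. The interval takes the 32 as independent, but some neighbours shared a replicate peak, so it gives counting error only. With the same limit, the matched share was 5 of 6 at Dscam1, 6 of 7 at Dscam2, 3 of 9 at Dscam3 and 6 of 10 at Dscam4. These lists contain background by design, so a pooled peak of this rank is not a called site.

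Most pooled summits inside the 4 genes lay toward the 5' end. Of 30 in the gene bodies, 28 were on the 5' side of the gene's midpoint (93.3%), against 63.5% of summits inside the longest 10% of genes. In the optimal list were 4 of the 30, 3 in Dscam1 and 1 in Dscam4, and all 4 were on the 5' side, against 67.2% of optimal summits in those long genes. Of the 3 in Dscam1, 2 belong to the exon 6 peak. Its stronger summit lay close to the midpoint, 29.5 kb into a gene of 64.0 kb. The other 26 were peaks below the optimal list, 24 of them on the 5' side (62.8% in the long genes), and some lay so close together that they shared a replicate peak, so they are not independent sites. Introns 1 and 2 of the Ensembl canonical transcripts held 18 of the 30 (60%, in 23.8% of the bases of the gene bodies), against 55.2% of summits in 41.1% of the bases for the long genes. The longest stretch of each gene without a pooled summit was at its 3' end: 34.4 kb of Dscam1 (53.8% of the gene), 26.1 kb of Dscam2 (85.1%), 14.4 kb of Dscam3 (45.4%) and 14.6 kb of Dscam4 (33.5%). The replicate lists had no summit in that stretch of Dscam1, 1 of replicate 3 in that of Dscam2, 1 of each replicate in that of Dscam3 and 1 of replicate 3 in that of Dscam4. Exons filled 55.4% of that stretch in Dscam1 and 25.2% of the rest of the gene, 46.8% and 14.5% in Dscam2, 44.9% and 11.8% in Dscam3, and 41.5% and 6.30% in Dscam4. The place and exon content of such stretches were not measured in other long genes. Neither is thus shown to be particular to the Dscam genes. No pooled summit of the 4 regions fell in coding sequence (0 of 41), which makes up 23.4% of their bases, and 2 (4.88%) fell in an exon, with exons at 31.7% of the bases. Both were in 5' UTRs, those of Dscam2 and corn. Summits were few in coding sequence elsewhere too: over the chromosome arms 1.5% of pooled summits fell in coding sequence (16.6% of bases) and 14% in an exon (26.2% of bases). The part of exon content in the stretches without a pooled summit was not tested.

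The motifs at the 9 optimal Dscam summits were compared with those at all optimal summits, counting a motif on either strand within 100 bp of the summit. These motifs were chosen with earlier results of these data known. GCAACA was at 5 of 9 Dscam summits, against 31.1% of all optimal summits, and these were the 5 of highest signal; none of the 4 weaker ones held it. Over the optimal list, GCAACA was at 43.5% of the 1074 peaks up to the rank of the fifth Dscam peak and at 28.6% of the others, a division set by the Dscam peaks themselves. It was at 64% of the 100 leading optimal peaks. CAGGTG, the E-box that Snail-family proteins are known to bind, was at 2 of 9 (7.68% of all): the Dscam1 promoter, 28.5 bp from the summit, and the second promoter of Dscam4. The longer CAACAGGTG, which contains CAGGTG, was at the Dscam1 promoter only (1.75% of all), and there a G before it also made GCAACA, so that the 3 motifs overlap. CAGCTG was at 3 of 9 (12.6% of all), all in Dscam1: the exon 6 cluster, intron 2 and the promoter. The shares were higher among the 100 leading optimal peaks, which include the Dscam1 promoter and exon 6 peaks. There CAGGTG was at 16%, CAACAGGTG at 6% and CAGCTG at 19%. At the exon 6 peak, GCAACA was 33.5 bp and CAGCTG 44.5 bp from the summit. Among the 32 weaker pooled peaks, GCAACA was at 6, against 22.2% of all pooled peaks below the optimal list. CAGGTG was at 1 (6.6% of all), CAGCTG at 0 (8.88%) and CAACAGGTG at 0 (0.67%).

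Most of the Dscam summit windows were rich in G and C. The median GC content within 100 bp of the summit was 51.7% (range 37.3 to 58.2) at the 9 Dscam summits, against 39.8% over all optimal summits, and 6 of the 9 exceeded the upper quartile of all, 47.3%. Among the 6 were both summits of the exon 6 peak and the summit in the cert intron. The Dscam1 promoter (44.8%) and the Dscam3 upstream site (46.3%) were below that quartile. The lowest of the 9 was that at corn and the highest that at the second Dscam4 promoter. The part of GC content in the motif counts was not tested.

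Genes that act with the Dscam receptors were looked up in 4 short lists by the same rule, an optimal summit in the body or within 5 kb. The lists were chosen with earlier results of these data known, so their shares are a description only. In all, 21 of 29 had one, against the 51.6% of all protein-coding genes. Of the 29, 13 are in the longest 10%, and all 13 had one, against 77.7% there. Among the listed genes outside the longest 10%, the share was near that of all protein-coding genes. Of 14 ligands, partners and signalling genes 10 had a summit. Among the genes given here, the best signals were 771 at trio, a guanine nucleotide exchange factor gene, and 557 at fra, the netrin receptor gene. The receptor phosphatase gene Ptp69D and the kinase gene Pak had none. The 3 genes that control how much Dscam1 is made all had one: hiw, a ubiquitin ligase gene (486), wnd, its kinase target (364), and Fmr1, which encodes an RNA-binding translational regulator (233). Of these, hiw is among the longest 10% and had no optimal summit within 500 bp of an own TSS, while wnd and Fmr1 had one there. Each signal is the best in the gene's region, where a summit can lie at a neighbouring gene.

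Of the 3 splicing regulators, mbl controls the choice of the alternative exon of Dscam2. This gene of 163 kb had 7 summits in its body or within 5 kb, with a best signal of 1052. The chromosome arms held 4.66 optimal summits per 100 kb, so 7 is not many for a gene of this length. Hrb87F and B52, the genes of an hnRNP and an SR protein, had none. Of 9 tiling and self-avoidance genes 7 had a summit. The highest signal was 6493 in the region of fry, with the summit at the promoter of CNMaR, a gene inside it. The product of fry works with the kinase Tricornered (trc) in dendrite tiling. Next came 690 at mew and 596 at mys, both integrin genes, and 390 at stan, a cadherin gene. The genes trc and Sin1 had none. The counts in these lists do not take account of gene length, and the genes without a summit were 10.7 kb or shorter.

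**Figure D4:**
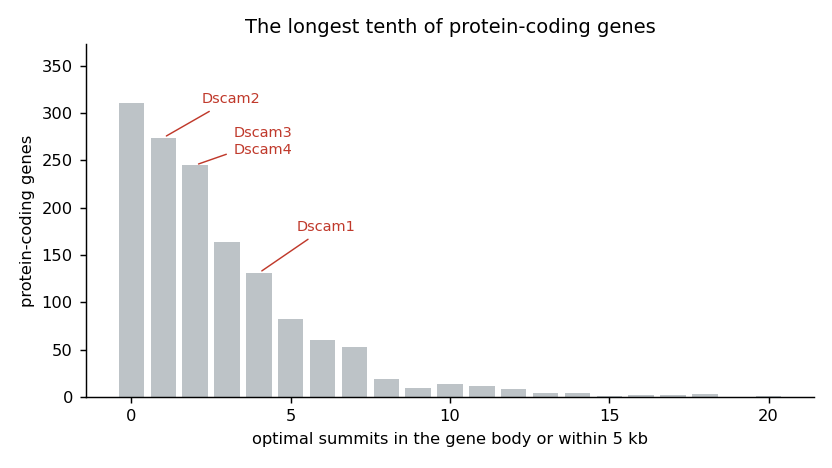
Number of optimal summits in the gene body or within 5 kb (horizontal axis) against the number of genes (vertical axis), for the 1397 longest protein-coding genes, with the place of the 4 Dscam genes marked. The bar at 0 holds 311 genes, and Dscam1, with 4 summits, lies above the median of 2 and short of the maximum of 20.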

How the data were processed

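Chromatin immunoprecipitation and sequencing of scrt-GFP was measured in 2 samples, replicates 3 and 4, of 1 group. The deposited files are 4 narrowPeak lists on dm6. By the README deposited beside each sample's list, the authors called peaks against control alignments on replicate 3, on replicate 4 and on their pool (30000 peaks each, background included as input for IDR), and derived the optimal list of 6407 from these. The signal of a peak is the authors' enrichment value, on a scale set within a list, and the deposited summit offset gave each summit position. Peak caller, aligner, IDR threshold and depth: each was not given in the sources used here, so no precision can be set on a signal. Many peaks have 1 fixed width (430 bp for 86.2% of pooled and 39.8% of optimal peaks), so summits were used in place of edges. The summit offset passed the end of the peak in 2 optimal peaks. No peak of 96407 ran past a chromosome end of the genome used.

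Genes, exons and TSSs were from Ensembl release 115, and sequence from RefSeq Release 6, the same assembly; the RefSeq coordinates of the 4 genes were the same. A peak of the pooled list was matched to the replicate peak of nearest summit among those overlapping by at least 1 bp. An exon of Dscam1 was called alternative when used in at most 60% of its coding transcripts without overlap with a more used exon. Genes and lists were chosen with earlier results of these data known. Every member was named with its optimal peaks and leading pooled peaks, and in each pathway list up to 4 genes of highest signal and 2 without a summit, except that 2 genes so chosen, 1 of them the strongest of its list, are not reported here; Tbcd was matched through a synonym. No test was run, since 1 group of 2 samples holds no contrast, and the main counts are given beside the same count over all genes or peaks. Alternatives were other flanks, overlap rules, promoter and motif windows, the 3203 strongest optimal peaks, merged summits, and each replicate alone. The code was tested on simulated peaks and motifs. Python 3.11.15, numpy 2.4.6, pandas 2.3.3, scipy 1.17.1 and matplotlib 3.10.9 were used.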

Additional observations from a re-analysis of the deposited data

How the results depend on the processing

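Of 41 alternative values, 31 stayed within 1.5 times the count given, or within the 95% interval of the share given. With no flank, Dscam2 and Dscam3 had 0 optimal summits and Dscam4 1, since their summits lie upstream of the TSS or beyond the 3' end; the share of protein-coding genes with a summit was then 15.4%. Among the 3203 strongest optimal peaks, Dscam2 had 0 and Dscam4 1, and the share of genes was 37.2%. With a flank of 10 kb that share was 66.5%. With each replicate's 6407 best peaks in place of the optimal list, Dscam1 had 3 to 4 summits, Dscam2 1, Dscam3 2 and Dscam4 2 to 3, and the share of genes was 50.8% to 53.3%. CAGGTG was at 1 of the 9 optimal peaks within 50 bp of the summit, losing the second Dscam4 promoter, and at 2 within 200 bp or in the whole peak. With promoters taken as 250 bp, the Dscam3 promoter peak (255 bp) was lost and 2 genes had one. The 9 peaks were matched in both replicates under every rule tried (reciprocal overlap of 50%, summits within 100 bp, leading peaks of each replicate only). Under the last, the second summit of the exon 6 peak passed by the overlap of its shared interval. Unknown depth limits every statement on peaks below the optimal list. No paired analysis was possible because there is 1 group.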
